A study of Mus musculus with 28 samples.

Results

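The response of WT CD4+ T cells to IL-4 alone was measured by comparing 6 RNA-seq libraries, 3 of the WT IL-4 culture and 3 of the WT control culture, out of the 24 RNA-seq libraries and the 28 samples of the series in all. The study asked how TGF-β and IL-4 together drive naive CD4+ T cells into Th9 cells, and IL-4 alone was 1 of its 4 culture conditions for each genotype. The cells were naive CD4+ T cells of adult mice that carry floxed Tgfbr1, the gene of TGF-β receptor I, and a tamoxifen-inducible Cre (Ert2-cre). WT here means such mice given oil, so the WT cells carry the floxed alleles and the Cre but had not been induced, and KO means mice given tamoxifen. Control cells were stimulated through the T cell receptor with anti-CD3 and anti-CD28 in medium, and IL-4 cells received the same stimulation plus IL-4. Libraries were made from polyA RNA by Smart-seq2, which does not mark the strand. The mouse, sex and culture behind each library are not given in the labels beyond the numbers WT1 to WT3, so p-values measure the spread between these libraries, which may be technical.

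The members were taken by the position of their column in the deposited table, because the headings of that table conflict with other values of the study. Read counts of 8 of its WT libraries, given with the study, were set against every column by which genes are at 0. All 8 fitted the column at their place in library-number order, with between 99.8% and 99.9% of genes alike, against at most 85.9% for any other column, whereas the headings named the right library for only 2 of the 8 and another library for 6. In that order WT control is held by the value columns 1, 5 and 9 and WT IL-4 by 3, 7 and 11. The read counts identified 4 of these 6 columns. Columns 5 and 7, called WT control replicate 2 and WT IL-4 replicate 2 here, rest on the order alone, as do all KO columns, and every result below holds only if the order is right. With the columns taken as headed, 0 of 9755 genes were called by limma at the threshold used below and 93 had an unadjusted p under 0.05.

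IL-4 is sensed through the IL-4 receptor α chain (Il4ra) paired with the common γ chain (Il2rg). The kinases JAK1 and JAK3 on these chains phosphorylate STAT6, which enters the nucleus and activates its target genes. In CD4+ T cells it is best known for raising Gata3, the master regulator of Th2 cells, and for restraining the Th1, Th17 and regulatory T cell fates. STAT factors bind a palindrome of TTC and GAA, and STAT6 prefers a spacer between them that is 1 base longer than that of the other STATs.

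The promoters of 4 genes that changed strongly and hold this palindrome are printed to show what it looks like. They were chosen after their values were seen. Ccl17 and Edn1 rose with IL-4, and Ccr6 and Foxp3 fell. The 250 bases before a RefSeq transcription start in GRCm38.p6 are given 5′ to 3′, with matches to TTCNNNGAA or TTCNNNNGAA in capitals.

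Ccl17 (chr8:94810203-94810452, plus strand): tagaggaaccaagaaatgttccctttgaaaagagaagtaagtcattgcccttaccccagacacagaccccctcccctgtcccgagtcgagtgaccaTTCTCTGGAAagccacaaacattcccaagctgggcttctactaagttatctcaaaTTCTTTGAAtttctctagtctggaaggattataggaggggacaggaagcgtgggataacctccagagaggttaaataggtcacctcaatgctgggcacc

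Edn1 (chr13:42301226-42301475, plus strand): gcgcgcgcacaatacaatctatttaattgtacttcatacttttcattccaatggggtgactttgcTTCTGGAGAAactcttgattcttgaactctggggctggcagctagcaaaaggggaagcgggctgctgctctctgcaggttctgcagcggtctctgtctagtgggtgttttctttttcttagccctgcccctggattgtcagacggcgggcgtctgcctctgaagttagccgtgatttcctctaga

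Ccr6 (chr17:8235793-8236042, plus strand): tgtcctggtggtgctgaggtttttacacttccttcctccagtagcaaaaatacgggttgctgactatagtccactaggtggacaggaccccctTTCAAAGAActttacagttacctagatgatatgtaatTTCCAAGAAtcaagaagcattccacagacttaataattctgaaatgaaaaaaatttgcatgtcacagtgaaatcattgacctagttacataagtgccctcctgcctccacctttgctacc

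Foxp3 (chrX:7580233-7580482, plus strand): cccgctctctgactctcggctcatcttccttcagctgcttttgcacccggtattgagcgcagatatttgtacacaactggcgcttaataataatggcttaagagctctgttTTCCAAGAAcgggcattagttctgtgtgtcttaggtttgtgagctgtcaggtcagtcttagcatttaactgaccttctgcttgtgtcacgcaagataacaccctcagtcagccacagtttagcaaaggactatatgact

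The match to TTCNNNNGAA began 154 bases before the start in Ccl17 and 185 bases before it in Edn1. Matches to TTCNNNGAA began 99 bases before the start in Ccl17, 157 and 120 bases before it in Ccr6, and 139 bases before it in Foxp3. Both motifs read the same on either strand, and their matches were counted separately even where they overlapped. In windows from 250 bases before to 50 bases after each start, found for 99 of the 125 genes called, TTCNNNNGAA stood in 13.7% of 95 promoters of genes called higher and 10.3% of 29 promoters of genes called lower, against 5.60% of 9818 promoters of all genes tested and 6.95% of all 32851 promoters. TTCNNNGAA stood in 7.37% and 20.7% of these promoters, against 7.02% and 8.30%. A match is a run of letters and not a shown binding site, and these shares were not tested.

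With IL-4 alone a small part of the genes tested passed the thresholds given below. Csf1, Ccl24, Ccl17, Casp6 and Gata3 had the largest rises, and Nrn1, Plaur, Adm, Ccr6 and Foxp3 the largest falls, among the genes called. Genes with a mean RPKM (read counts scaled by gene length and by library size) of at least 1 over the 6 libraries were compared on log2(RPKM + 1) with limma, and genes that changed over 1.5-fold with a p under 0.01 after Benjamini-Hochberg adjustment were called. Of 9680 genes tested, 90 (0.93%) were called higher and 35 (0.362%) lower with IL-4, 1.29% in all. In the same limma fit 1686 genes had an unadjusted p under 0.05. An adjusted p under 0.01 at any fold was reached by 121 genes toward higher and 79 toward lower. All 125 genes called had libraries of the 2 cultures that did not overlap, which held for 24.3% of all genes tested. The log2 fold change exceeded 1 in 35 of the genes called higher and was under −1 in 9 of those called lower, and its median was 0.90 in the first and −0.77 in the second, against 0.0064 over all genes tested. Because 1 was added to each RPKM, fold changes of low genes are understated. The control mean was under 1 RPKM for 16 of the genes called higher.

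The number of calls depended on the libraries. With replicates 1 and 3 alone, the 4 columns identified by their read counts, 53 genes were called higher and 20 lower, of which 53 and 16 were among the 125. Without replicate 1 of both cultures 10 and 2 were called, and without WT control replicate 1 alone 57 and 16. None of the 125 changed sign when any library or replicate was left out. This was fixed beforehand, since the libraries of the 2 cultures did not overlap for any of the 125. The depth of the libraries relative to WT control replicate 1 lay between 0.910 and 1.03 in control and between 0.688 and 1.199 in IL-4, with WT IL-4 replicate 2 the shallowest, and between 14559 and 15084 genes were above 0. Total read numbers are unknown. In bulk RNA, fewer cells of a type and less RNA per cell cannot be told apart.

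**Figure D1:**
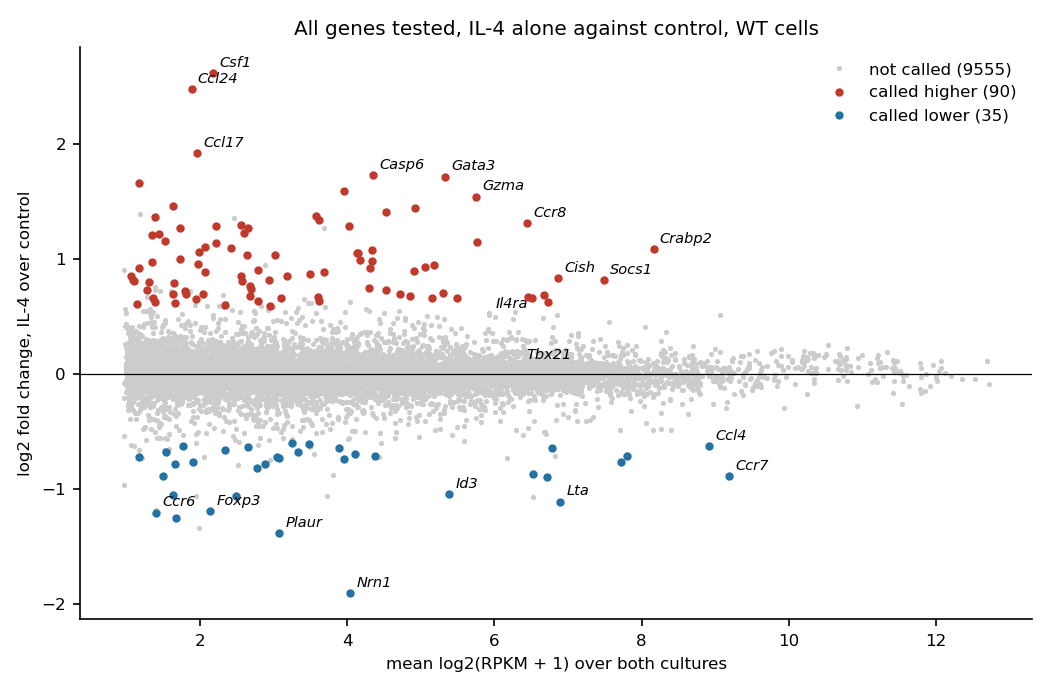
Each point is 1 of the 9680 genes tested, with the mean log2(RPKM + 1) over both cultures on the x axis and the log2 fold change of IL-4 over control on the y axis. Red and blue points are the 90 genes called higher and the 35 called lower, and rises reached 2.62 (Csf1) while falls reached −1.91 (Nrn1).

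Gata3 (chr2:9778705-9811661, minus strand, mm9) had the smallest p of all genes tested. It was at 21.7, 19.3 and 22.5 RPKM in the control libraries and at 72.3, 68.4 and 74.8 RPKM with IL-4. The lowest IL-4 library was thus well above the highest control library, and Gata3 rose 3.39-fold in mean RPKM (log2 fold change 1.72, SE 0.07, adjusted p = 3.4e-05). Of the 14 genes tested among the Th2 regulators, receptors and cytokines, 5 were called higher and none lower, with a median log2 fold change of 0.39. Over all genes tested 0.93% were called higher and 0.362% lower, the shares to set beside the counts of this and every later list. Beside Gata3 the 5 called Th2 genes were Ccr8 and Ccr4, chemokine receptors of Th2 and skin-homing cells, and the transcription factors Nfil3 and Gfi1. Ccr8 was at 53.7, 50.9 and 58.1 RPKM in control and at 125, 131 and 153 RPKM with IL-4 (log2 fold change 1.31, adjusted p = 0.00011). Ccr4 rose by a log2 fold change of 1.06, Nfil3 by 1.05 and Gfi1, a repressor that favours the growth of Th2 cells, by 0.81.

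The Th2 cytokines themselves stayed low. Il4 was at 0.818, 1.52 and 1.24 RPKM in control and at 1.62, 2.002 and 2.33 RPKM with IL-4, groups that did not overlap but a difference that was not called (log2 fold change 0.45, adjusted p = 0.12). Il13 lay between 0.198 and 0.965 RPKM and Il5 between 0.0429 and 0.528 RPKM over the 6 libraries, both below the filter. Il9, the cytokine that defines Th9 cells, was at 9.93, 10.9 and 8.15 RPKM in control and at 13.0, 14.6 and 17.4 RPKM with IL-4 (log2 fold change 0.58, adjusted p = 0.034), which was not called. Among the 17 tested Th9 genes, Batf and Batf3, AP-1 factors, were called higher (log2 fold changes 0.69 and 1.34) and Id3, an inhibitor of E proteins, lower (−1.05). Irf4, which works with Batf, had a log2 fold change of 0.37 (adjusted p = 0.019).

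No gene of the receptor and its signalling chain was called. Il4ra was at 48.0, 52.1 and 50.1 RPKM in control and at 71.1, 77.4 and 67.6 RPKM with IL-4, without overlap. Its log2 fold change of 0.52 had an adjusted p of 0.0023 but fell short of the 1.5-fold limit, so it was not called. Stat6 was at 67.1, 68.1 and 71.9 RPKM in control and 57.3, 56.5 and 59.6 RPKM with IL-4 (log2 fold change −0.25, adjusted p = 0.024). The median over the 11 tested genes of the receptor, JAK-STAT6 and adaptor list was −0.05. Of the 7 tested genes of the SOCS family, feedback inhibitors of cytokine receptors, 2 were called higher and 1 lower (median 0.16). Socs1, an inhibitor of JAK kinases, was at 137, 131 and 135 RPKM in control and at 250, 232 and 230 RPKM with IL-4 (log2 fold change 0.82, adjusted p = 9.3e-05). Cish rose by 0.84, from 71.6 to 96.4 RPKM in control to 133 to 172 RPKM with IL-4, while Socs2 fell by 0.68, and the other 4 were not called.

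**Figure D2:**
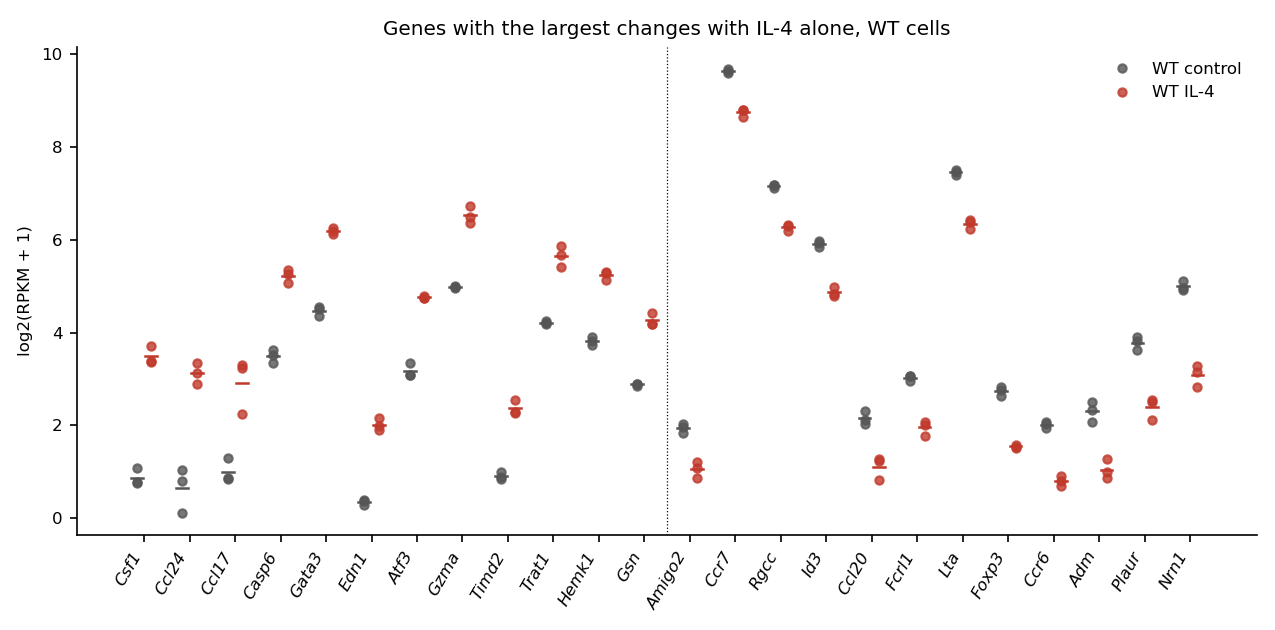
Each point is 1 library on the log2(RPKM + 1) scale, grey for WT control and red for WT IL-4, and bars are means of 3 libraries, for the 12 largest rises (left of the dotted line) and the 12 largest falls among called genes. These 24 genes were chosen among called genes whose 2 cultures did not overlap, and Ccl17 had the widest spread within the IL-4 culture, from 3.72 to 8.78 RPKM.

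Secreted factors gave the 3 largest rises, and of 12 tested activation cytokines 3 were called higher (Csf1, Il2 and Csf2) and 2 lower (Lta and Ltb), with a median of 0.11. Csf1 (chr3:107543966-107563387, minus strand, mm9), the growth factor of macrophages, was at 0.708, 0.698 and 1.10 RPKM in control and at 12.1, 9.36 and 9.40 RPKM with IL-4 (log2 fold change 2.62, SE 0.12, adjusted p = 6e-05). Ccl24, an eosinophil attractant, was at 0.742, 1.05 and 0.0898 RPKM in control and at 7.80, 6.44 and 9.21 RPKM with IL-4 (log2 fold change 2.48, SE 0.22). Ccl17, a ligand of Ccr4, was at 0.815, 1.47 and 0.788 RPKM in control and at 8.44, 3.72 and 8.78 RPKM with IL-4 (log2 fold change 1.92, SE 0.27, adjusted p = 0.0055). All 3 genes were low without IL-4, at 1.47 RPKM or less, and Ccl24 was at only 0.0898 RPKM in 1 control library. Edn1, the vasoactive peptide endothelin 1 whose promoter is printed above, was at 0.217, 0.322 and 0.296 RPKM in control and at 3.47, 2.95 and 2.71 RPKM with IL-4 (log2 fold change 1.66). Of the other cytokines of activated T cells, Il2 rose from between 64.9 and 76.6 RPKM to between 108 and 113 RPKM (log2 fold change 0.67), and Csf2, which encodes GM-CSF, from between 5.10 and 6.52 RPKM to between 9.13 and 10.2 RPKM (0.66).

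Ccl24 and Ccl17 are better known from macrophages and dendritic cells than from T cells, so markers of these cells were read in the same libraries. Of 21 myeloid and dendritic markers 19 were in the table and 9 passed the filter, and none was called. Their summed level lay between 207 and 301 RPKM in control and between 192 and 283 RPKM with IL-4. Lyz2 was at 3.06 to 5.35 RPKM in control and 2.23 to 3.75 RPKM with IL-4, Csf1r was at most 0.127 RPKM in any of the 6 libraries, and Fcgr1 was listed at 0 in 1 control and 2 IL-4 libraries. Of the 9 tested, 4 had IL-4 libraries all above the control libraries, as 12.9% of all genes tested had, among them 3 genes singled out after their values were seen. S100a8, a neutrophil and monocyte protein, was at 3.20 to 11.4 RPKM in control and 12.5 to 28.6 RPKM with IL-4 (log2 fold change 1.27, adjusted p = 0.15). Its partner S100a9 was at 1.61 to 3.72 RPKM and 4.14 to 14.1 RPKM (1.35, adjusted p = 0.082). Chil3, a gene of IL-4-treated macrophages, was at 0.155 to 0.854 RPKM and 1.07 to 4.10 RPKM (1.39, adjusted p = 0.054). All 3 were thus higher in the IL-4 libraries, as Ccl24 and Ccl17 were, but none was called. Over all 9 tested markers the median log2 fold change was −0.11, and none was lower without overlap. The part of these cells in the rises of Ccl24 and Ccl17 was not tested. Cd4 was at 93.8 to 98.3 RPKM in control and 79.2 to 84.5 RPKM with IL-4. Of the 12 T cell markers 1, the T cell receptor adaptor Trat1, was called, and it was higher (log2 fold change 1.44). The median of the 12 was −0.10, and 6 of them were lower and 2 higher without overlap, against 11.4% and 12.9% of all genes tested. Their summed level was between 2531 and 2691 RPKM in control and between 2314 and 2364 RPKM with IL-4. The part of this lower level in other results was not tested.

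Among the remaining large rises were genes of several functions. Casp6, an executioner caspase, was at 9.17, 10.4 and 11.3 RPKM in control and at 32.7, 37.3 and 39.5 RPKM with IL-4 (log2 fold change 1.73). Atf3, a stress-induced transcription factor, rose by 1.59, and it was the only one of 22 tested immediate early and AP-1 genes called. Timd2 of the TIM family of surface receptors rose by 1.46, Hemk1, a methyltransferase, by 1.41 and Gsn, the actin-severing protein gelsolin, by 1.38. Satb1, a chromatin organizer that takes part in Th2 cytokine expression, rose by 0.92 and the inhibitory receptor Tigit by 1.08.

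Gzma, a granule protease of cytotoxic cells, was at 30.6, 31.0 and 29.9 RPKM in control and at 80.6, 104 and 89.3 RPKM with IL-4 (log2 fold change 1.54, adjusted p = 7.4e-05). Serpinb6b was the other called gene of the 10 tested cytotoxic granule genes, with a log2 fold change of 0.69, and Gzmb was not called (0.41, adjusted p = 0.11). None of the 8 tested markers of CD8 T and NK cells was called. The summed level of the 9 in the list was between 44.9 and 47.1 RPKM in control and between 51.3 and 64.5 RPKM with IL-4, without overlap, with Cd8a at 5.45 to 6.12 and 5.20 to 6.18 RPKM, Cd8b1 at 19.4 to 21.1 and 24.7 to 30.4 RPKM, and Ncr1 at 1.30 to 1.42 and 2.25 to 3.71 RPKM. Their part in the rise of Gzma was not tested.

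Genes of the alternative T cell fates fell or were not called. Foxp3, the master regulator of regulatory T cells, was at 5.76, 6.12 and 5.23 RPKM in control and at 1.85, 1.996 and 1.92 RPKM with IL-4 (log2 fold change −1.196, adjusted p = 0.00011). Ctla4, an inhibitory receptor of regulatory and activated T cells, fell by 0.60, and the other 8 of the 10 tested Treg genes were not called (median −0.19 over the 10). Of 8 tested Th17 genes 2 were called lower and none higher, with a median of −0.65. These were the chemokine receptor Ccr6 (−1.21) and its ligand Ccl20 (−1.05). Ccr6 was at 3.19, 2.87 and 3.09 RPKM in control and at 0.622, 0.892 and 0.754 RPKM with IL-4. Il22, another cytokine of these cells, had a log2 fold change of −1.06 and an adjusted p of 0.015, and was not called.

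The Th1 regulator Tbx21 was not called. It was at 74.7, 79.4 and 82.5 RPKM in control and at 81.7, 83.7 and 83.6 RPKM with IL-4 (log2 fold change 0.07, adjusted p = 0.50), with overlap. Ifng was at 63.1, 71.6 and 60.3 RPKM in control and at 65.7, 80.1 and 97.7 RPKM with IL-4 (log2 fold change 0.30, adjusted p = 0.29). Of the 18 tested Th1 genes only Lta, which encodes lymphotoxin α, was called, and it was lower. Without overlap 8 of the 18 were lower and 1 higher, against 11.4% and 12.9% of all genes tested (median log2 fold change −0.13). The summed level of the Th1 list was 856 to 882 RPKM in control and 703 to 742 RPKM with IL-4. Lta was at 180, 168 and 174 RPKM in control and at 81.8, 73.6 and 84.9 RPKM with IL-4 (log2 fold change −1.11). Its partner Ltb fell by 0.71, whereas Tnf, which lies between them on chromosome 17, was not called (−0.22, adjusted p = 0.18). None of the 9 tested Tfh genes was called, though 5 of them were lower and 1 higher without overlap (median −0.20).

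The largest fall was that of Nrn1 (chr13:36817494-36826346, minus strand, mm9), a cell surface protein first known from neurons. It was at 33.8, 29.4 and 29.9 RPKM in control and at 8.73, 7.93 and 6.13 RPKM with IL-4 (log2 fold change −1.91, SE 0.11, adjusted p = 9.2e-05). Plaur, the urokinase receptor, fell by 1.39 and Adm, the peptide adrenomedullin, by 1.26. Ccr7, which guides T cells to lymph nodes, was at 814, 766 and 788 RPKM in control and at 441, 444 and 396 RPKM with IL-4 (log2 fold change −0.89, adjusted p = 0.00014). Of 14 tested naive and memory homing genes it was the 1 called lower and Satb1 the 1 called higher (median −0.18). Of the 12 tested genes of the chemokine ligand list, which does not hold Ccl24, Ccl17 was called higher and Ccl3, Ccl4 and Ccl20 lower (median −0.28). The inflammatory chemokines Ccl3 and Ccl4 fell by 0.64 and 0.63, from levels of 133 to 140 RPKM and 588 to 613 RPKM in control. Rgcc, a cell cycle regulator, fell by 0.89 and the adhesion molecule Amigo2 by 0.88. Fcrl1, better known from B cells, fell by 1.07, from between 6.77 and 7.34 RPKM to between 2.44 and 3.24 RPKM. The summed level of 12 B cell markers overlapped, at 24.6 to 40.2 RPKM in control and 19.2 to 40.4 RPKM with IL-4. None of the 6 tested was called, and their median log2 fold change was −0.52.

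The lists of several programs of the activated cell held no called gene, which says little about lists of this size where 1.29% of all genes tested were called. None of 33 tested cell cycle and DNA replication genes was called (median log2 fold change 0.14), nor any of 21 glycolysis and hypoxia response genes (−0.01), 24 interferon-stimulated genes (−0.08), 17 amino acid, one-carbon and Atf4 genes (0.02), 8 metallothioneins and iron handling genes (−0.01) or 14 common γ chain and related cytokine receptors (−0.10). The cell cycle genes held 15 members whose IL-4 libraries were all above the control libraries and 2 all below, against 12.9% and 11.4% of all genes tested. The common γ chain and related receptors held 1 above and 7 below, and the interferon-stimulated genes 2 and 6. Glycolysis and hypoxia genes held 0 and 4, amino acid, one-carbon and Atf4 genes 4 and 1, and metallothioneins and iron handling genes 1 and 1. None of these members was called. None of the 12 tested TGF-β receptors, Smads and feedback inhibitors was called. Tgfbr1 itself was at 3.02, 3.25 and 3.31 RPKM in control and at 3.69, 3.48 and 3.94 RPKM with IL-4 (log2 fold change 0.17, adjusted p = 0.29). Of 22 tested sterol and fatty acid synthesis genes only Scd2, a desaturase, was called (0.68). Of 11 tested clock and PAR bZIP genes Npas2, a partner of the clock protein Bmal1, was called higher (0.72), with Nfil3 as above, and none was called lower. Dbp, a PAR bZIP factor and 1 of the factors on which the study centred, was at 2.63, 2.97 and 2.29 RPKM in control and at 2.34, 3.43 and 2.14 RPKM with IL-4 (log2 fold change −0.01, adjusted p = 0.99). E2f8, an E2F repressor and another of those factors, had a log2 fold change of 0.24 (adjusted p = 0.19).

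**Figure D3:**
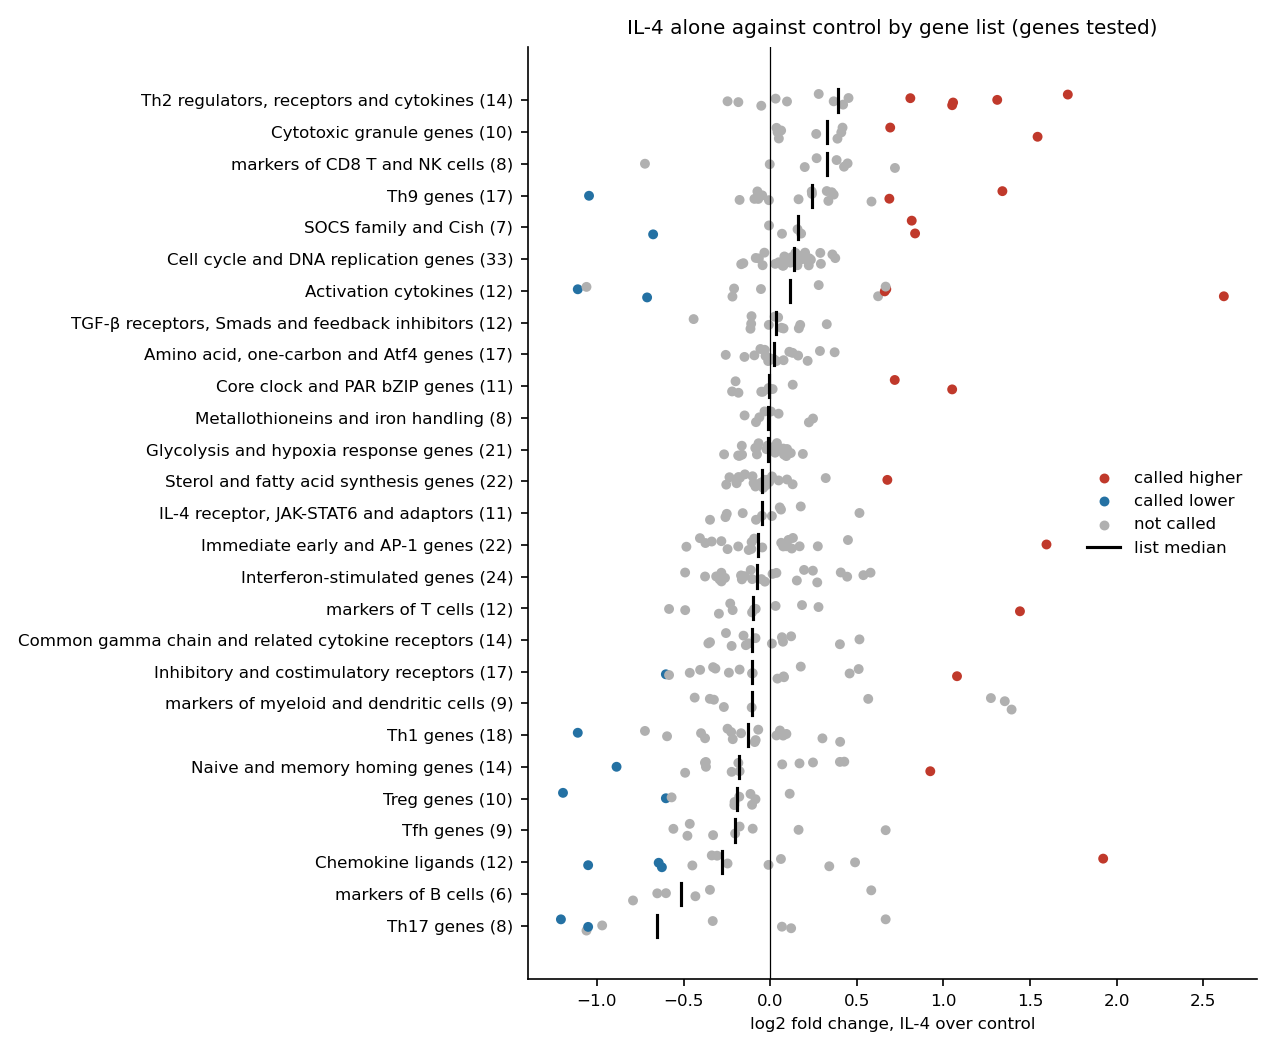
Each point is the log2 fold change of IL-4 over control of 1 tested gene, by gene list with the number tested in parentheses, red where called higher, blue where called lower and grey where not called, and the black bar is the list median. Medians ran from −0.65 (Th17 genes) to 0.39 (Th2 regulators, receptors and cytokines).

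Other called genes belonged to no list and are named here after their values were seen. Crabp2, a retinoic acid carrier, was the called gene of highest level among those that rose, at 178 to 211 RPKM in control and 389 to 443 RPKM with IL-4 (log2 fold change 1.09). Il12a, the p35 subunit of IL-12, rose by 1.36 from at most 0.693 RPKM in control. Id1, an inhibitor of E proteins like Id3, rose by 1.29, the opposite direction to Id3. Dusp10, a phosphatase of stress kinases, rose by 1.28, Pros1, an anticoagulant plasma protein, by 1.15 and the activation marker Cd83 by 0.93.

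Some called genes lay side by side. Of the 119 called genes with a position in the GENCODE vM1 annotation of mm9, 11 neighbouring pairs were less than 100 kb apart, and both genes of each pair were called in the same direction. The same count over all genes tested was not made, so these pairs show no excess. Most genes called were higher, 90 of 125, so many pairs would share a direction in any case. Among them were Batf3 and Atf3 on chromosome 1, 61353 bp apart, Casp6 and Pla2g12a on chromosome 3, Cish and Hemk1 on chromosome 9, Ccl3 and Ccl4 on chromosome 11, Socs1 and Tnp2 on chromosome 16, and Ltb and Lta on chromosome 17. Tnp2 lies 2400 bp from Socs1, both on the minus strand, and Socs1 is transcribed away from Tnp2. The transcript from which the Tnp2 reads come was not tested. Gp49a and Lilrb4, another of these pairs, overlap in the annotation and are near-identical copies, so their separate values are uncertain.

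The same treatment was given to Tgfbr1 KO cells, in libraries that are not shared with the WT comparison but whose columns rest on order alone. There 144 of 9600 genes (1.5%) were called higher and 97 (1.01%) lower, 2.51% in all. Of the 90 genes that rose in WT cells 85 were tested in KO cells, 84 had the same sign and 75 were called higher in both, 83.3% of the WT list and 52.1% of the KO list. Of the 35 that fell, 31 were tested, all 31 had the same sign and 26 were called lower in both, 74.3% and 26.8% of the lists. Over the 85 the median log2 fold change was 1.34 in KO and 0.92 in WT cells. These genes were chosen by their change in WT cells. How often all genes tested shared a sign was not counted, here or for the cultures with TGF-β below. A test of the difference in 1 fit of all 12 libraries, over 9668 genes, called 4 genes (0.0414%) with a larger response in KO cells and none with a smaller one, with 794 at an unadjusted p under 0.05. These were Gata3, Socs1, Slc2a6, a hexose transporter, and Ralgds, an activator of Ral GTPases. Gata3 went from 8.51, 8.65 and 9.58 RPKM in KO control to 58.8, 71.0 and 71.4 RPKM in KO cells with IL-4. In WT cells it went from a mean of 21.2 to 71.8 RPKM, so the KO control libraries were the lowest of the 4 cultures. The test called no gene without replicate 1, 2 or 3, while 409, 867 and 655 genes then had a p under 0.05 before adjustment.

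IL-4 was also added to WT cells together with TGF-β, in cultures that share no library with the comparison of IL-4 alone. TGF-β + IL-4 against TGF-β gave 249 of 9852 genes (2.53%) called higher and 50 (0.508%) lower, 3.03% in all. Of the 90 genes that rose with IL-4 alone 86 were tested, 83 had the same sign and 61 were called higher in both, 67.8% and 24.5% of the lists. Of the 35 that fell, 32 were tested, 21 had the same sign and 8 were called lower in both. These were 22.9% and 16.0% of the lists. The median of the 32 was −0.19 with TGF-β and −0.77 without. The 32 were chosen by their fall without TGF-β, so the second median was set in part by the thresholds and the 2 medians show no difference by themselves. The 8 included Foxp3 (log2 fold change −0.91 with TGF-β), Lta (−0.93) and Id3 (−0.83). A test of the difference over 9794 genes called 139 (1.42%) toward higher and 34 (0.347%) toward lower with TGF-β, 1.77% in all. Of the replicate numbers, without 1 it called none (1614 at an unadjusted p under 0.05), without replicate 2 91 and without replicate 3 32.

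The levels of single genes in the cultures with TGF-β are given for the difference tested above, and TGF-β alone was not tested against control. Ccr7 was at 457, 468 and 438 RPKM with TGF-β and at 543, 555 and 593 RPKM with TGF-β + IL-4, a difference toward higher (log2 fold change 0.31, adjusted p = 0.0029) that stayed under the 1.5-fold limit. Nrn1 was at 4.95, 5.71 and 5.93 RPKM with TGF-β alone and was at 3.55, 2.99 and 3.59 RPKM with both. Ccr8 was at 381, 359 and 368 RPKM with TGF-β and at 379, 370 and 348 RPKM with both, above every library with IL-4 alone, with overlap (log2 fold change −0.02). Il2 was at 10.3, 9.75 and 10.6 RPKM with TGF-β and at 40.3, 38.5 and 34.5 RPKM with both. Il9 was at 45.9, 45.2 and 40.1 RPKM with TGF-β and at 36.1, 33.6 and 34.1 RPKM with both, lower in every library with IL-4 (log2 fold change −0.33, adjusted p = 0.0063, under the 1.5-fold limit), whereas its difference with IL-4 alone was 0.58. Foxp3 was at 61.9, 73.4 and 57.6 RPKM with TGF-β and at 31.4, 34.8 and 34.8 RPKM with both.

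**Figure D4:**
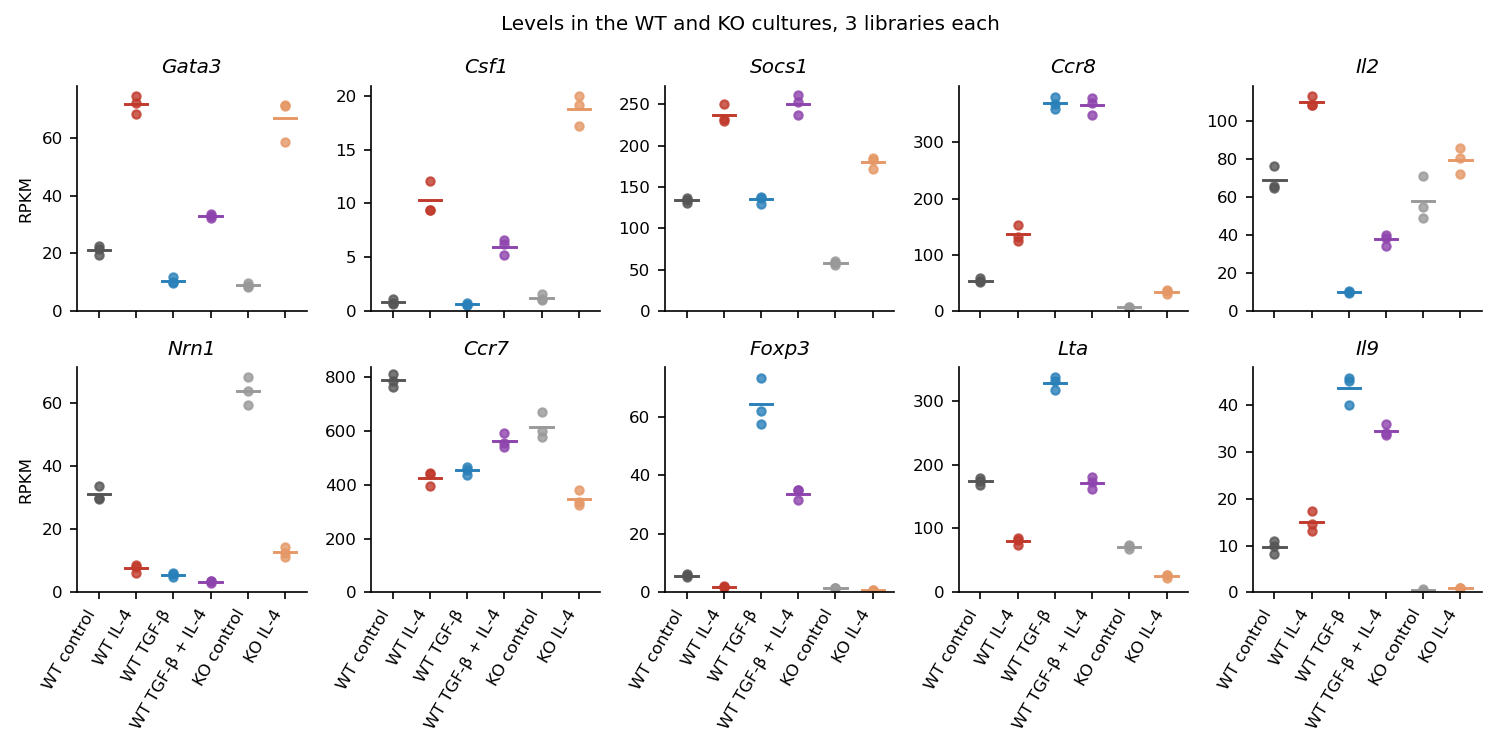
Each point is the RPKM of 1 library and bars are means of 3 libraries, for 10 genes in WT cells (control, IL-4, TGF-β, TGF-β + IL-4) and KO cells (control, IL-4), with the y axis from 0. Gata3 was higher with IL-4 in all 3 pairs of cultures, while Ccr8 was at 348 to 381 RPKM in all 6 libraries with TGF-β and Nrn1 was at 4.95 to 5.93 RPKM with TGF-β alone.

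**Figure D5:**
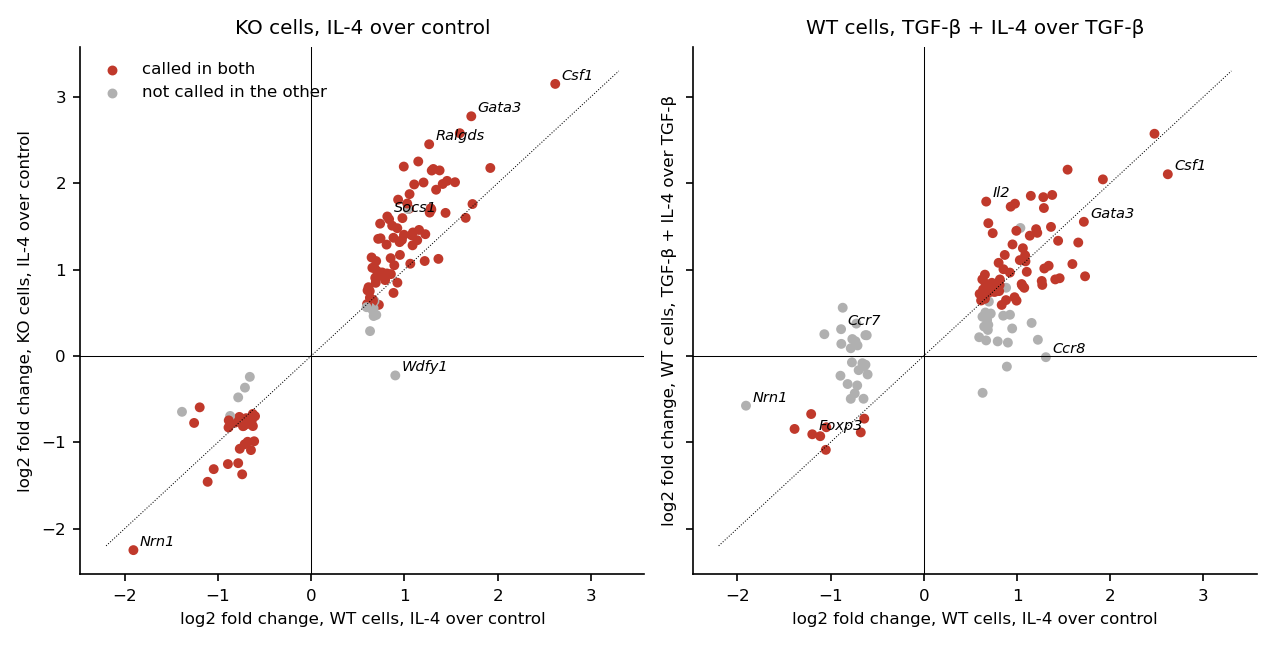
Each point is a gene called with IL-4 alone in WT cells, with that log2 fold change on the x axis and, on the y axis, the log2 fold change of IL-4 over control in KO cells (left) or of TGF-β + IL-4 over TGF-β in WT cells (right). Red points were called in both (75 higher and 26 lower on the left, 61 higher and 8 lower on the right), grey points were not called in the other comparison, and the dotted line marks equal changes.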

How the data were processed

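RNA was measured by Smart-seq2 on polyA RNA. The authors deposited 1 table of RPKM values per gene, which they had computed with edgeR after Bowtie2 alignment to mm9 and after dropping duplicate and poorly mapped reads; versions are not given in the sources used here. No total read numbers were used, so only relative depth is known. The table has 24 value columns, of which 1 was not mapped to a sample and not used. Columns were assigned to libraries by position in library-number order, against the headings, for the reason given in the results. DNase-seq peak lists were not used, since no library there had IL-4 alone.

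Genes with a mean RPKM of 1 or more over the libraries compared were tested on log2(RPKM + 1) with limma 3.58.1 in R 4.3.3 (moderated test with trend) and Benjamini-Hochberg adjustment over all tested genes. A call needed an adjusted p under 0.01 and over 1.5-fold on that scale. Differences between responses were tested as interaction terms. The steps were tested on simulated data. Tables and plots used Python 3.11.15, pandas 2.3.3 and matplotlib 3.10.9.

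The members, the 27 gene lists and the rules were chosen with earlier results of these data known. 1 gene of the lists is not reported here and was left out of them. Named genes were the 12 largest rises and 12 largest falls among called genes whose libraries did not overlap, all called list members, up to 4 uncalled members of highest mean per list, and a short fixed set (Il4ra, Stat6, Gata3, Il4, Il9, Dbp, E2f8, Tgfbr1, Socs1, Cish, Ifng, Tbx21 and Foxp3). Alternatives were the columns as headed, the identified columns alone, another pseudocount, other filters and scalings, a fit of all 4 WT cultures, no trend, another p threshold, a replicate block and each library left out.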

Additional observations from a re-analysis of the deposited data

Results flagged for a closer look

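The response to IL-4 differed between cultures, by a test of the difference itself in limma (adjusted p under 0.01 and over 1.5-fold), for 4 genes in KO against WT cells and for 173 genes with against without TGF-β, of which those named in the text are given here. All values are differences of log2 fold changes on log2(RPKM + 1), the libraries are assigned by column order, and none of these differences was weighed for a cause. Most of the genes were named for their change with IL-4 alone in WT cells, which is 1 of the 2 responses in each difference.

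In KO against WT cells the response was larger by 1.06 for Gata3, 1.19 for Ralgds, 1.199 for Slc2a6 and 0.80 for Socs1. None of these 4 was called when a replicate number was left out, and all KO columns rest on order alone.

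With TGF-β against without it, the difference was toward lower for Casp6 (−0.81), Pla2g12a (−1.02), Ccr8 (−1.33) and Il9 (−0.91). The log2 fold change of Il9 was 0.58 without TGF-β and −0.33 with it, neither of them called. The difference was toward higher for Nrn1 (1.33), Adm (1.53), Fcrl1 (1.32), Rgcc (0.66), Ccr7 (1.196), Amigo2 (1.02) and Ltb (0.83), all of which had fallen with IL-4 alone, and for Il2 (1.12), Serpinb6b (0.84), Cd83 (0.80) and Pros1 (0.70), which had risen with it. It was also toward higher for Cd8a (0.61), which was not called with IL-4 alone. Adm was at 0.438 to 0.858 RPKM with TGF-β and 0.927 to 1.05 RPKM with both, below the filter of that comparison. Amigo2 was at 0.932 to 1.18 RPKM and 0.960 to 1.65 RPKM. At such levels, with 1 added to each RPKM, a fall with IL-4 could hardly show.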

How the results depend on the processing

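The main limits are the column order, which decides every result, and 3 libraries a culture. With the columns as headed, IL-4 against control gave 0 calls in place of 125 (0 of 90 higher, 0 of 35 lower), and both tests of a difference gave 0. The signs then reversed for 3 of the 90 and 12 of the 35 genes, among those named Fcrl1 (0.136), Ccr7 (0.0802), Ltb (0.0579), Ccl3 (0.0154) and Ccl4 (0.0047), and for the difference with minus without TGF-β in Casp6 (0.21), Nrn1 (−0.39), Adm (−0.40), Fcrl1 (−0.52), Rgcc (−0.24), Ccr7 (−0.39), Amigo2 (−0.29), Ccr8 (0.44), Il2 (−0.30), Ltb (−0.40), Serpinb6b (−0.26), Cd83 (−0.23), Cd8a (−0.23), Pla2g12a (0.475), Pros1 (−0.19) and Il9 (0.31). No named result reversed under another alternative run. For IL-4 against control, the identified columns alone gave 73 calls (53 higher, 20 lower), no filter 83 (22 lower), a mean RPKM of 5 or more 80 (55 higher), and the fit with a replicate block 72 higher and 23 lower. Leaving out libraries gave 12 to 120 calls, 10 to 83 higher and 2 to 40 lower, with 12 without replicate 1 and 73 without replicate 2 or without WT control replicate 1. The difference between KO and WT cells had 4 calls, 1 with no filter, 15 at an adjusted p under 0.05 and 0 to 0 without a replicate. That with TGF-β had 173, 106 with no filter (90 higher, 16 lower), 284 at an adjusted p under 0.05 (79 lower), 64 lower with the replicate block, and 0 to 91 (0 to 77 higher, 0 to 14 lower) without a replicate. The causes were not tested. Same-numbered libraries of the 2 cultures had correlations of deviations of 0.0518, 0.107 and 0.317. WT control replicates 1 and 3 correlated best with their own number, and WT control replicate 2 with WT IL-4 replicate 1 (0.214). These values cannot decide whether the numbers are pairs, and the labels do not say. The main fit did not take them as pairs, and the calls of the fit with a replicate block are given above.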
